A study of Mus musculus with 18 samples.

Results

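The subunits of the oxidative phosphorylation machinery were read in RNA of cells sorted from mouse mammary glands. Protein-coding genes were taken by the start of their symbol (Ndufa, Ndufb, Ndufc, Ndufs, Ndufv, Sdha to Sdhd, Uqcr, Cox4 to Cox8, Atp5 and the mitochondrial mt-Nd, mt-Co, mt-Atp and mt-Cytb), and 110 of the 52636 genes in the tables matched. Of these, 104 had 10 or more counts in at least 3 of the 18 libraries, and all 104 passed the expression filter that left 18298 genes for testing. They were 79 nuclear genes of subunits, 12 mitochondrially encoded genes and 13 genes that the prefixes also take but that code for assembly factors or relatives of a subunit (Ndufaf1 to Ndufaf8, Sdhaf1 to Sdhaf4 and Atp5s), which were counted apart. By complex, the nuclear subunits were 35 of complex I, 4 of complex II, 8 of complex III, 16 of complex IV and 16 of complex V. Ndufa4 and its relative Ndufa4l2 were counted with complex IV, where the Ndufa4 protein works. The names leave out Cyc1, a further subunit of complex III.

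The 18 libraries form 6 groups of 3 biological replicates. Cells came from wild-type mice (WT) or from mice with the mutation D542G or Y541S in Esr1, the gene of estrogen receptor alpha, and were sorted into a mature luminal gate (ML) or into a second gate, called N here. Every mouse was 6 months old, carried E2 and P4 hormone pellets and received the receptor antagonist giredestrant by mouth at 30 mg/kg on each of 4 days, so no group shows cells without the antagonist. Levels are CPM, a gene's share of its library's counts after TMM scaling (a factor per library that equalises the bulk of genes), and p-values measure the spread between libraries. The labels name mature luminal cells as the source of all libraries, but markers of that type (10 genes) summed to 888 to 17986 CPM in N against 12464 to 29690 CPM in ML libraries. Markers of luminal progenitors (7 genes, with Csn3 at 0 throughout) summed to 138 to 1929 CPM in N against 3757 to 14916 CPM in ML libraries. Markers of basal cells (8 genes) summed to 4923 to 35814 CPM in N against 142 to 6303 CPM in ML libraries. Library 3 of WT N stood apart, with 17986 CPM of mature luminal markers against at most 4883 CPM in the other N libraries. Markers of the differentiating epidermis (9 genes, with Calm4 at 0 throughout) summed to 4670, 10771 and 12310 CPM in WT N 1, WT N 2 and Y541S N 3, against 35 to 801 CPM in the other N and 14 to 1874 CPM in the ML libraries. Depth was 34797778 to 49507144 gene counts per library. In sorted bulk samples, fewer cells of a type and less RNA per cell cannot be told apart.

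Oxidative phosphorylation moves electrons from NADH (complex I) and succinate (complex II) through complexes III and IV to oxygen, and complex V, the ATP synthase, uses the proton gradient this builds. Complex II is encoded wholly in the nucleus, and the other complexes combine nuclear subunits with a few made from mitochondrial DNA. Nuclear subunit genes are spread over the chromosomes, and nuclear respiratory factor 1 (NRF1), a transcription factor, is known to bind in many of their promoters.

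Promoter sequence was looked at because these genes sit apart in the genome and yet many of them lay lower in one gate (values follow). RefSeq promoter windows on GRCm38.p6 were found for 64 of the 79 nuclear subunit genes, and the 250 bases before the annotated start were searched on both strands for the letters used for NRF1, GCGCA and GCGC with 1 base of any kind between them. A match was present for 13 of the 64 genes (20.3%), and for 1022 of 17492 protein-coding genes with a window of the same length (5.84%). The 17492 genes were not limited to those expressed here and were not matched for base composition. A match was present for 7 of the 24 genes with a window that were lower in N and for 6 of the 39 not called. Other letters were rarer in these bases: CCGGAAGT (ETS factors such as GABPA) was found for 4.69% against 4.26% of all genes, AAGATGGCG (YY1) for 1.56% against 0.84%, TCAAGGTCA (estrogen-related receptors) for 1.56% against 0.36%, and the estrogen response element (GGTCA and TGACC with any 3 bases between them) for 0 of 64 against 0.057%. In the whole window of 300 bases, which runs past the annotated start, the YY1 letters were found for 7 of the 64 genes (10.9%) against 2.14% of all, those of NRF1 for 26.6% against 7.17%, of ETS factors for 7.81% against 5.69% and of estrogen-related receptors for 3.13% against 0.38%. A match describes the letters only. Shown here are the stretches upstream of Ndufs5 (complex I), Cox6a1 (complex IV) and Atp5h (complex V), each a gene lower in N, cut to what lies outside annotated exons, 5′ to 3′ on the strand of the gene, with the NRF1 letters in capitals.
Ndufs5, chr4:123718203-123718436, minus strand: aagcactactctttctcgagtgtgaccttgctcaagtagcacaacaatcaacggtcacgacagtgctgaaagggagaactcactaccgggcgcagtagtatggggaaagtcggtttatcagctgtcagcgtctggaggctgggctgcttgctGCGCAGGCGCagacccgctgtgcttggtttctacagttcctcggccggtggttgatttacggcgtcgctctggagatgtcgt
Cox6a1, chr5:115348982-115349129, minus strand: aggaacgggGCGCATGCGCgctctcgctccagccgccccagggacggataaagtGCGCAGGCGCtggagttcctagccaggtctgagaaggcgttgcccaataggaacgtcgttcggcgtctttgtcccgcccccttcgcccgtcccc
Atp5h, chr11:115419963-115420127, minus strand: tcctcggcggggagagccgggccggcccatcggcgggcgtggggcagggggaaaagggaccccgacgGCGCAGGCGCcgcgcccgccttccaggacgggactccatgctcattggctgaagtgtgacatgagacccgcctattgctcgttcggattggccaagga
Cox6a1 holds 2 such matches within 148 bases, and Ndufs5 and Atp5h hold 1 each.

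The difference between the gates was taken as the mean of the 3 genotypes with equal weight (9 N against 9 ML libraries). Nuclear subunit genes lay lower in N: 25 of 79 (31.6%) fell and 2 rose in edgeR's quasi-likelihood test at an adjusted p under 0.05, against 13.6% of all genes tested called lower and 13.8% called higher. Of the 79 log2 fold changes, 70 were negative, and their median was −0.29, against −0.03 over all genes. Complex I contributed 12 of its 35 genes to those that fell, complex II 2 of 4, complex IV 6 of 16 and complex V 5 of 16, and none of the 8 of complex III was called (2 at an unadjusted p under 0.05). The 12 mitochondrial genes gave no call (lowest adjusted p = 0.0982 by edgeR, 3 genes at an unadjusted p under 0.05), with 11 of 12 values negative and a median of −0.29 (−0.28 over the 7 genes above 100 CPM). In the summed levels, nuclear subunits made up 13667 ± 1496 CPM in ML and 11847 ± 1324 CPM in N libraries (SD, n = 9 each), with ranges of 11105 to 15743 and 9589 to 13986 CPM that overlap.

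**Figure D1:**
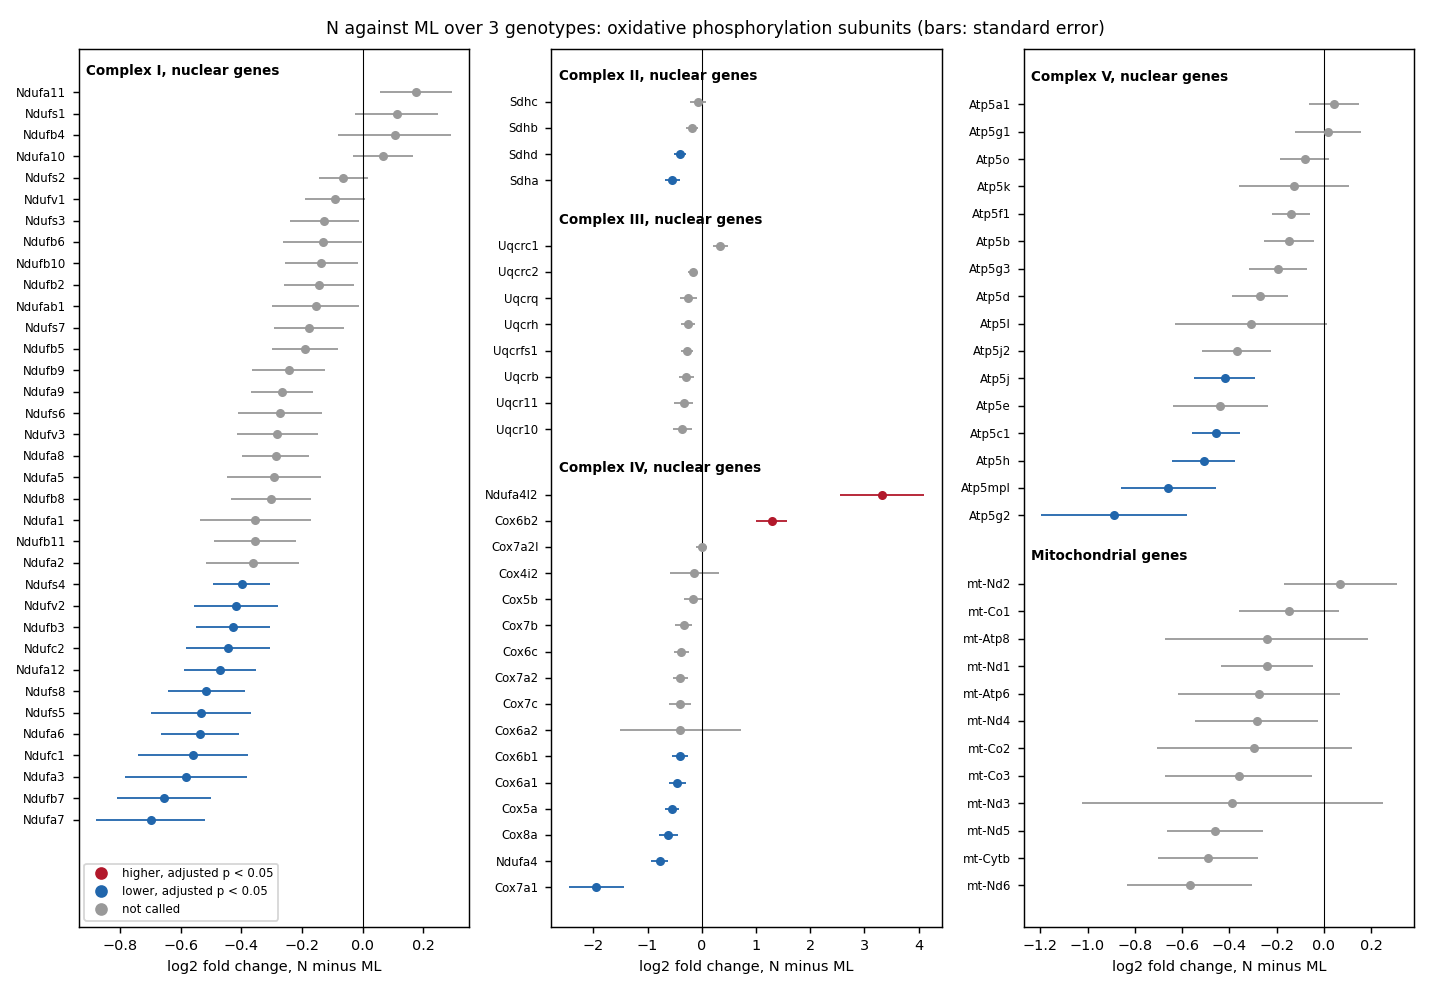
Log2 fold change of N against ML over the 3 genotypes for each nuclear subunit by complex and each mitochondrial gene, as points with standard errors; the 3 panels have different scales. Blue marks the 25 nuclear genes that fell, red the 2 that rose, and the values of complex III and of the mitochondrial genes are all grey.

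Leaving out 1 library gave 14 nuclear genes lower (without Y541S N 1, where 10.8% of all genes were) to 31 (without WT N 3, 17.3%), with 15 without WT ML 1, WT N 1 or WT N 2 and 16 without D542G ML 2. For the fits with 15 or 16, shares of all genes are not given, so these counts are not a result about the members. Of the 27 nuclear calls, 16 held in all 18 fits that leave out 1 library, and not every call that was lost is named below. The counts moved further when the 3 N libraries rich in epidermal markers were left out together. In that fit WT N 3, high in mature luminal markers, is the only WT N library. Epidermal content, fewer libraries and the weight of WT N 3 cannot be told apart there. Without WT N 1, WT N 2 and Y541S N 3, only Ndufa4, Cox7a1 and Atp5c1 of the 25 were still called lower (7.65% of the 20355 genes then tested) and 1 gene higher (6.96%), with a nuclear median of −0.25 beside −0.14 over all genes. By limma-voom 40 nuclear genes fell, where 21.9% of all genes were called lower. Without WT N 3 the nuclear median was −0.34, and the part of other cells in these values was not tested.

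Complex I takes electrons from NADH, and its 12 genes that fell were mostly accessory subunits, which surround the catalytic core. Of the 7 nuclear core genes 2 fell, and of the 28 accessory genes 10 did. The core genes were Ndufs8, which holds iron-sulfur clusters on the path to ubiquinone, and Ndufv2, an iron-sulfur subunit of the NADH-oxidising end. Ndufs8 stood at 142 to 243 CPM (median 183) in the 9 ML libraries and at 98.6 to 181 CPM (median 124) in the 9 N libraries. Only WT N 3, at 181 CPM, reached into the ML range, and the fitted change was −0.52 ± 0.13 (adjusted p = 0.00885 by edgeR). Ndufv2 changed by −0.42 ± 0.14 (adjusted p = 0.0376), with WT N 3 at 218 CPM and the other N libraries at 86.8 to 145 CPM.

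The pattern of all 9 N libraries below all 9 ML libraries was shown by 1.28% of all genes. Of the 79 nuclear genes 1 showed it, which is near that share. This was the accessory subunit Ndufa12 (chr10:94198720-94221443, plus strand), which belongs to the arm that reaches into the matrix. Its ML libraries held 59.4 to 90.1 CPM and its N libraries 34.8 to 57.9 CPM, a change of −0.47 ± 0.12 (adjusted p = 0.00971 by edgeR). With WT N 3 left aside, 12 nuclear genes showed this pattern, against 3.43% of all genes: Ndufa6, Ndufa12, Ndufb3, Ndufb7, Ndufs5 and Ndufs8 of complex I, Sdhd of complex II, Cox5a, Cox7a1, Cox8a and Ndufa4 of complex IV, and Atp5h of complex V. Ndufb7, in the membrane arm, stood at 134 to 192 CPM in ML and, outside WT N 3 (168 CPM), at 66.5 to 122 CPM in N libraries, with a change of −0.65 ± 0.16. Ndufs4, an accessory subunit whose loss in mice is a model of Leigh syndrome, changed by −0.40 ± 0.10 (adjusted p = 0.00685), from a median of 119 to 92.1 CPM. The other accessory genes that fell were Ndufa7 (−0.70), Ndufa3 (−0.58), Ndufc1 (−0.56), Ndufa6 (−0.54), Ndufs5 (−0.53), Ndufc2 (−0.44) and Ndufb3 (−0.43). Calls of Ndufa3, Ndufc1, Ndufs5, Ndufc2 and Ndufv2 were lost when single libraries were left out: they held in 4, 9, 10, 10 and 5 of the 18 such fits.

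Complex II oxidises succinate and belongs also to the tricarboxylic acid cycle. Its 4 genes did not give the same call. Sdha (ENSMUSG00000021577, chr13:74322254-74350280, minus strand), the flavoprotein that oxidises succinate, stood at 271, 432 and 591 CPM in WT ML, 551, 522 and 425 CPM in D542G ML and 633, 560 and 517 CPM in Y541S ML libraries. In N libraries it stood at 324, 327 and 416 CPM in WT, 377, 372 and 298 CPM in D542G and 332, 349 and 272 CPM in Y541S. All N values lay below the ML values apart from the lowest ML library, WT ML 1, and the change was −0.55 ± 0.14 (adjusted p = 0.00933 by edgeR). Sdhd, a membrane anchor, had a median of 244 CPM in ML and 193 CPM in N libraries and changed by −0.40 ± 0.12 (adjusted p = 0.0181). The iron-sulfur subunit Sdhb stood at −0.18 ± 0.10 (adjusted p = 0.210) and Sdhc, the other anchor, at −0.07 ± 0.14 (adjusted p = 0.761). Sdhaf1, which helps to load the iron-sulfur clusters of Sdhb, was the 1 of 13 assembly factors and relatives that was called. It stood at 5.96 to 10.9 CPM in ML and 2.49 to 4.79 CPM in N libraries, with no overlap, and changed by −1.17 ± 0.17 (adjusted p = 0.000215, also called with each library left out). Of its exon bases 69.6% lie inside other genes, and genes lying wholly inside others mostly hold 0 counts in these tables.

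Complex III passes electrons from ubiquinol to cytochrome c. Its highest value was that of Uqcrc1, a core protein, at 601 ± 70.9 CPM in ML and 763 ± 155 CPM in N libraries (SD, n = 9 each). The N libraries at 1004 and 942 CPM were WT N 2 and Y541S N 3, and the change of 0.34 ± 0.13 was not called (adjusted p = 0.0720 by edgeR). The other 7 genes had log2 values below 0.

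Complex IV reduces oxygen, and several of its subunits come as pairs of isoforms typical of different tissues. Ndufa4 (ENSMUSG00000029632, chr6:11900292-11907497, minus strand), the form present in most tissues, stood at 287, 200 and 223 CPM in WT ML, 173, 214 and 176 CPM in D542G ML and 205, 193 and 186 CPM in Y541S ML libraries. In N it stood at 96.4, 110 and 214 CPM in WT, 71.6, 121 and 112 CPM in D542G and 106, 136 and 125 CPM in Y541S libraries. Outside WT N 3 no N library reached the lowest ML library, and the change was −0.77 ± 0.16 (adjusted p = 0.00254 by edgeR). Ndufa4l2 (chr10:127514967-127517154, plus strand), a relative induced by low oxygen, went the other way but in few libraries. It stood at 126, 112 and 14.4 CPM in WT N, 0.956, 15.6 and 2.02 CPM in D542G N and 3.43, 3.65 and 148 CPM in Y541S N, against 0.831 to 10.7 CPM in ML libraries. The 3 libraries over 100 CPM were those with the most epidermal markers, and the ML library with most Ndufa4l2, Y541S ML 3, was also the one with most epidermal markers (1874 CPM). The fitted change of 3.33 ± 0.77 (adjusted p = 0.00944) became 1.21 without the 3 N libraries (adjusted p = 0.247). Markers of pericytes, a cell type known to express Ndufa4l2, summed to 98 to 424 CPM in N and 61 to 110 CPM in ML libraries, highest in Y541S N 1. Of 12 genes tested from a list of the response to low oxygen, 5 rose and 2 fell in N (median 0.45; 13.8% and 13.6% of all genes), among them P4ha1, a collagen hydroxylase (2.05 ± 0.20), and Epas1, which codes for HIF-2α (1.98 ± 0.22), with Egln3, a HIF hydroxylase, at −1.86 ± 0.36.

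**Figure D2:**
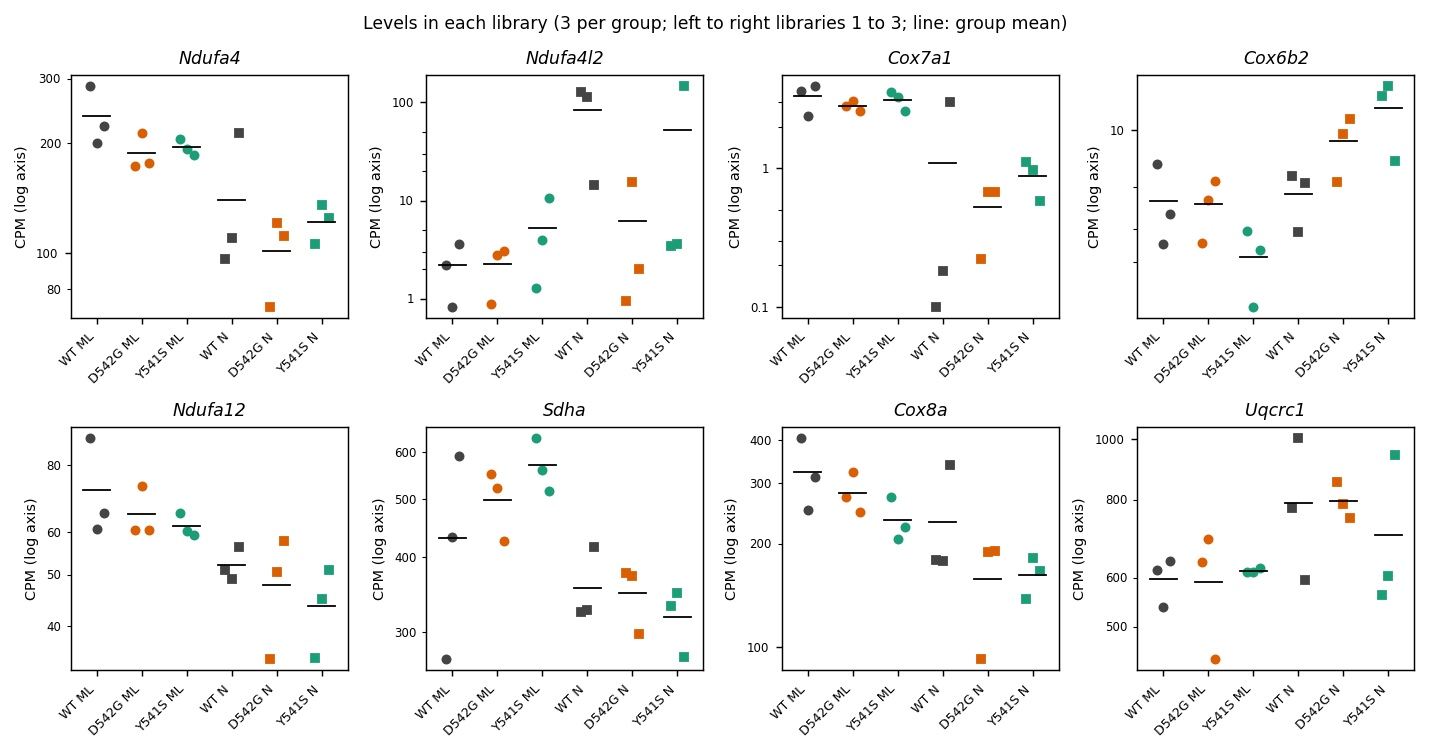
CPM of 8 subunit genes in each library on a log axis, 3 libraries per group, with the group mean as a line (circles ML, squares N). Ndufa4l2 passes 100 CPM in WT N 1, WT N 2 and Y541S N 3 only, and WT N 3 lies among the ML libraries for Ndufa4, Cox7a1 and Cox8a.

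Cox7a1 (chr7:30184144-30186078, plus strand), the isoform of heart and skeletal muscle, was the member with the lowest log2 fold change. It stood at 2.38 to 3.95 CPM in ML libraries. In N it stood at 0.101, 0.181 and 2.99 CPM in WT, 0.222, 0.674 and 0.681 CPM in D542G and 1.11, 0.981 and 0.579 CPM in Y541S libraries, with WT N 3 alone in the ML range. The change was −1.95 ± 0.51 (adjusted p = 0.0131 by edgeR). Skeletal muscle markers (9 genes, Acta1 at 0) summed to 3 to 38 CPM in ML and 3 to 33 CPM in N libraries. Its widely expressed partner Cox7a2 stood at 127 ± 31.4 and 97.7 ± 26.2 CPM (−0.40 ± 0.14, adjusted p = 0.0546), and the related Cox7a2l, which joins complexes III and IV, at 56.2 ± 9.22 and 55.9 ± 4.98 CPM in ML and N (SD, n = 9 each). Its change had an adjusted p of 0.994.

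Cox6b2 (chr7:4751792-4753094, minus strand), an isoform best known from testis, rose. It stood at 6.61, 2.49 and 3.57 CPM in WT ML, 2.51, 4.28 and 5.36 CPM in D542G ML and 2.90, 1.15 and 2.30 CPM in Y541S ML libraries. In N it stood at 5.69, 2.87 and 5.26 CPM in WT, 5.33, 9.51 and 11.4 CPM in D542G and 15.2, 17.3 and 6.87 CPM in Y541S libraries. In WT the gates overlapped, and in Y541S they did not. The change over genotypes was 1.29 ± 0.29 (adjusted p = 0.00535 by edgeR), and it was called with each library left out. Its common partner Cox6b1 went down by 0.40 on the log2 scale (adjusted p = 0.0470), a call that held in 5 of 18 fits with a library left out.

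Of the further complex IV genes, Cox8a, the common isoform, changed by −0.62 ± 0.17, Cox5a, a structural subunit, by −0.55 ± 0.13, and Cox6a1 by −0.45 ± 0.15 (adjusted p = 0.0171, 0.00525 and 0.0418 by edgeR). Cox4i2, the isoform of lung known to respond to low oxygen, stood at 0.446 to 3.27 CPM with no call (−0.14 ± 0.45), as did the muscle isoform Cox6a2 (at most 1.27 CPM, all of its exon bases inside another gene). The common isoform Cox4i1 and Ndufa13 of complex I had 0 counts in every library and lie wholly inside the spans of other genes, so the tables do not show their expression. Cox8b reached 10 counts in 1 library, Cox7b2 at most 4 and Cox8c 0, and these stayed under the count rule. At its inner edge were mt-Nd3 and mt-Atp8, each with 10 or more counts in 4 libraries.

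Complex V makes ATP in its F1 part, tied to the membrane ring by central and peripheral stalks. The catalytic F1 subunits were not called: Atp5b stood at 2080 ± 262 and 1881 ± 253 CPM and Atp5a1 at 1461 ± 220 and 1505 ± 142 CPM in ML and N (SD, n = 9 each, adjusted p = 0.328 and 0.816 by edgeR). Of the 5 F1 genes only the central stalk gene Atp5c1 fell, from a median of 359 to 244 CPM (−0.46 ± 0.10, adjusted p = 0.00491), and it kept its call in each of the 18 fits with a library left out and without the 3 epidermal-rich libraries (adjusted p = 0.0425). Of the other 11 genes 4 fell: Atp5g2, 1 of the genes for the ring subunit (−0.89 ± 0.31), the small subunit gene Atp5mpl (−0.66 ± 0.20), and the peripheral stalk genes Atp5h (−0.51 ± 0.13) and Atp5j (−0.42 ± 0.13). Atp5g2 stood at 0.388 to 4.57 CPM, and 36.7% of its 50-base windows also occur in other annotated genes, so its counts are uncertain.

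Nuclear members that share sequence with other genes had lower counts. The 11 nuclear members with 10% or more of their 50-base windows found in other annotated genes had a median of 14.1 CPM per kb of exon (1.11 to 37.9), and the 68 others a median of 73.7 CPM per kb. Among the 13 mitochondrial genes looked at, those with nearly all windows shared were low, while mt-Co1 (51.1% shared) and mt-Nd4 (62.2%) were not. Transcripts of mt-Co2, mt-Co3, mt-Atp6, mt-Nd3 and mt-Nd4l share 98.0 to 99.9% of their windows with a copy annotated on nuclear chromosome 1 (chr1:24612407-24615565 for those named here). They stood at 0.0915 to 3.86 CPM per kb of transcript. The copies held few counts as well, 0 to 113 in a library. The mt-Co2 transcript equals its copy Gm28661 over all 681 bases of the copy, and the first 120 bases of each are shown to make this plain.
mt-Co2: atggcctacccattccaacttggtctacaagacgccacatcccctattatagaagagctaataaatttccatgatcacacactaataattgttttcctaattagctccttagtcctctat
Gm28661: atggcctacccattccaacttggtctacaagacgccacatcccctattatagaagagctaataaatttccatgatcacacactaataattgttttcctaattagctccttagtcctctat
No base differs between them in this stretch. The same held for mt-Co3 with Gm28437 (783 bases) and mt-Atp6 with Gm10925 (678 bases). A low value of these 5 genes therefore does not show low expression. The gene mt-Atp8 (M:7766-7969) was low too, at 0.965 CPM per kb, and its end lies inside mt-Atp6 (M:7927-8607). None of its windows was shared, but only annotated transcripts were searched. It lies between mt-Co2 and mt-Atp6, whose copies on chromosome 1 are apart (Gm28661 from 24614885, Gm10925 up to 24614651). The stretch between these copies was not searched for mt-Atp8, so its low value cannot be read as low expression either.

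**Figure D3:**
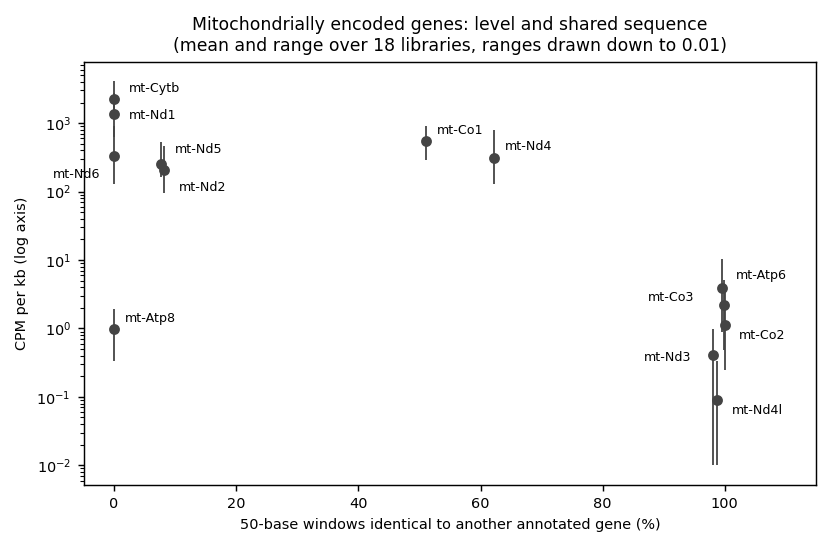
Mean CPM per kb of each of the 13 mitochondrially encoded protein genes (log axis, bars from the lowest to the highest of 18 libraries) against the percentage of its 50-base windows found in other annotated genes. The 5 genes at 98% or more lie under 4 CPM per kb, and 7 of the 8 others over 200 CPM per kb.

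Mitochondrial levels were read from the 7 remaining genes, which had 0 to 62.2% shared windows. Levels per kb use the whole transcript, and loss of counts in shared stretches of mt-Co1 (51.1% of windows) and mt-Nd4 (62.2%) was not tested. Their ranks against genes with fewer shared windows are therefore uncertain. Strand use is not given, so counts of mt-Nd6, on the other strand from the rest, may include RNA of the opposite strand. Its rank is uncertain too. Counts over the 12 tested mitochondrial genes include mt-Co2, mt-Co3, mt-Atp6, mt-Nd3 and mt-Atp8, so medians are given for these 7 as well. Per kb of transcript, mt-Cytb of complex III stood at 2226 ± 879 CPM and mt-Nd1 of complex I at 1377 ± 506 CPM (SD over 18 libraries). They were followed by mt-Co1, the catalytic subunit of complex IV, at 547 ± 182 CPM, mt-Nd6, the one protein gene of the other strand, at 333 ± 186, mt-Nd4 at 313 ± 156, mt-Nd5 at 255 ± 101 and mt-Nd2 at 210 ± 90.7 CPM per kb. From mt-Nd6 down, each gene differed from the next by less than the SD of either over libraries, and the order held in 11 (mt-Nd6 over mt-Nd4), 16 (mt-Nd4 over mt-Nd5) and 13 (mt-Nd5 over mt-Nd2) of 18 libraries. Every step above held in all 18, and so did mt-Nd6 over mt-Nd2. All 7 genes were highest in the same library, WT ML 1, and lowest in Y541S ML 1 or D542G N 1. The gene mt-Cytb stood at 4720, 4107 and 2266 CPM in WT ML, 2330, 2228 and 4301 CPM in D542G ML and 1647, 3115 and 2094 CPM in Y541S ML libraries. In N it stood at 1842, 1684 and 3399 CPM in WT, 1385, 1516 and 1880 CPM in D542G and 2646, 2829 and 1856 CPM in Y541S libraries. High libraries were thus found in every group of WT and in D542G ML, and the gates overlapped (−0.49 ± 0.21, adjusted p = 0.0982 by edgeR).

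Summed over the 12 genes, mitochondrial levels were 11812, 9268 and 5093 CPM in WT ML, 5149, 5091 and 9429 CPM in D542G ML and 3518, 6817 and 4700 CPM in Y541S ML libraries. In N they were 4727, 4392 and 7644 CPM in WT, 3100, 4168 and 4970 CPM in D542G and 6255, 7110 and 4780 CPM in Y541S libraries. Relative to its mean the sum varied more within each of the 6 groups than that of nuclear subunits, with an SD of 19.5 to 38.9% of the mean against 5.74 to 16.2% (n = 3 each). In CPM its SD was the larger in 5 groups, as in WT ML (8724 ± 3392 against 14327 ± 1601 CPM), but not in Y541S N (6048 ± 1179 against 11046 ± 1396 CPM). The ratio of the mitochondrial to the nuclear sum ran from 0.253 in Y541S ML 1 to 0.849 in D542G ML 3. Libraries 1 and 2 of WT ML, both high in mitochondrial sums, also held hair follicle keratins (5109 and 1106 CPM), B and plasma cell genes (1749 and 2928 CPM) and basal markers (6303 and 4708 CPM), where D542G ML 3 held 0, 19 and 386 CPM of these. Such markers were also found in Y541S ML 2 (2364 CPM of B and plasma cell genes) and Y541S ML 3 (2878 CPM of hair follicle keratins), whose mitochondrial sums were 6817 and 4700 CPM. Their part in the mitochondrial values was not tested.

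**Figure D4:**
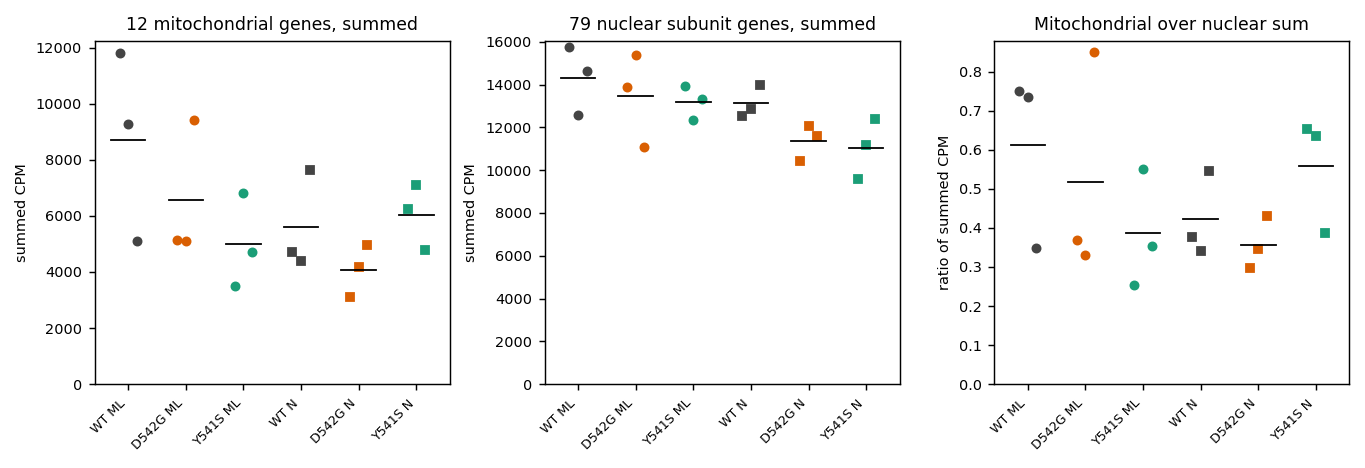
Summed CPM of the 12 mitochondrial genes and of the 79 nuclear subunit genes, and the ratio of these sums, in each library (3 per group, line at the group mean; axes start at 0). Mitochondrial sums spread from 3100 to 11812 CPM, and nuclear sums from 9589 to 15743 CPM.

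Within single genotypes (3 against 3 libraries) edgeR called 2 members lower in WT, 3 in D542G and 1 in Y541S. Without WT N 3 these counts were 9, 10 and 4 of 104, where 8.14%, 6.87% and 5.13% of all genes were called lower. Leaving out other single libraries gave 0 to 1 in WT, 1 to 7 in D542G (7 without D542G ML 3) and 0 to 1 in Y541S. Shares of all genes are not given for these other fits, so their counts are not a result about the members. In WT, Atp5g2 fell (4.57, 1.94 and 1.54 CPM in ML against 0.604, 0.388 and 0.716 CPM in N, −2.23 ± 0.54) and so did Sdhaf1 (−1.19 ± 0.29, adjusted p = 0.0415 and 0.0392 by edgeR), where 1.39% of all genes were called lower and 2.14% higher. With same-numbered libraries as pairs (replicate block) neither was called (adjusted p = 0.0833 and 0.0871). In D542G, Cox5a (81.0, 103 and 72.6 CPM against 39.9, 54.7 and 51.8 CPM, −0.81 ± 0.22), Ndufa6 (−0.79 ± 0.22) and Sdhaf1 (−1.44 ± 0.29) fell, with adjusted p of 0.0321, 0.0410 and 0.00813, where 4.49% of all genes were called lower and 4.71% higher. In Y541S, Sdha fell (−0.84 ± 0.24, adjusted p = 0.0471) and Cox6b2 rose (2.63 ± 0.50, adjusted p = 0.00861), where 2.73% were called lower and 4.22% higher. With single libraries left out, Cox6b2 in Y541S and Sdhaf1 in D542G were called in all 18 fits, Cox5a in 13, Ndufa6 in 8, Sdhaf1 in WT in 4, and Atp5g2 in WT and Sdha in Y541S in 3 each. The medians of nuclear subunits were −0.28 in WT, −0.40 in D542G and −0.22 in Y541S, each with at least 66 of 79 values negative and with medians of −0.02, −0.03 and −0.02 over all genes. Mitochondrial genes had medians of −0.88 in WT and −0.61 in D542G, with 12 of 12 negative, and 0.49 in Y541S, with 12 of 12 positive, and none was called. Over the 7 genes above 100 CPM the medians were −0.68, −0.64 and 0.34, with all 7 of the same sign in each genotype. All 7 were highest in WT ML 1 and lowest in Y541S ML 1 or D542G N 1, so a shared sign is not 7 separate observations.

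**Figure D5:**
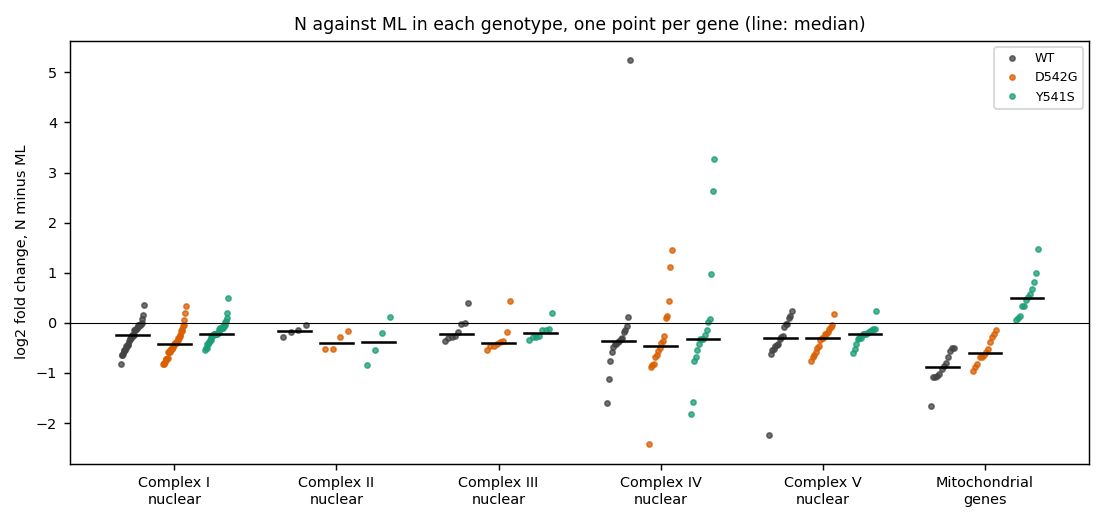
Log2 fold change of N against ML in each genotype for the genes of each complex and for mitochondrial genes, 1 point per gene with the median as a line. Nuclear medians lie below 0 in all 3 genotypes, and the mitochondrial points lie below 0 in WT and D542G and above 0 in Y541S.

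Whether the gate difference itself differed between genotypes was tested as an interaction, and no member was called (0 of 104 in each of 3 interactions, where 0.109%, 0% and 0.109% of all genes were called by edgeR). At an unadjusted p under 0.05 stood 1 member for D542G against WT, 7 for Y541S against WT and 1 for D542G against Y541S. The share of all genes at that p is not given, so these counts are not a result about the members. Called by another tool were 1 member for D542G against WT (limma-voom, 6.85% of all genes) and 1 for Y541S against WT (DESeq2, 1.01%). The mitochondrial median of the interaction of Y541S with the gate was 1.31, with 4 of 12 genes at an unadjusted p under 0.05. Of these mt-Co3 and mt-Atp6 are genes whose level cannot be read here, and over the 7 genes above 100 CPM the median was 0.96, with 2 of 7 at that p, mt-Nd4 and mt-Nd2 (1.57 ± 0.59 for mt-Nd2, adjusted p = 0.535 by edgeR). For Cox6b2 the same interaction was 2.50 ± 0.71 (adjusted p = 0.412 by edgeR). The interactions of D542G and of Y541S against WT share the WT libraries, of which WT ML 1 and 2 are the high ones above.

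Genotypes were then compared within a gate, again with no member called by edgeR. In N, 2.43% of all genes were called for D542G against WT, 1.14% for Y541S against WT and 1.43% for D542G against Y541S. At an unadjusted p under 0.05 stood 16, 8 and 0 members. Shares of all genes at that p are not given, here or for the ML gate below, so these counts are not a result about the members. DESeq2 called 1 member higher and 3 lower for D542G against WT and 2 higher and 1 lower for Y541S against WT, and limma-voom 1 and 5, and 2 and 2. Of all genes DESeq2 called 9.37% and 5.82% in these comparisons, and limma-voom 22.4% and 10.6%. Both called no member between the mutants. The nuclear median was −0.36 for D542G and −0.25 for Y541S against WT, with 71 and 73 of 79 values negative and medians of −0.06 and −0.04 over all genes. Each WT N library stands apart in markers (epidermal in 1 and 2, mature luminal in 3). Without WT N 3 the nuclear medians were −0.19 and −0.15 (65 and 62 negative), and with it as the only WT N library, Y541S N 3 left out as well, −0.51 and −0.53. Without D542G N 1 the first was −0.18, and without Y541S N 1 the second was −0.17. In the ML gate 0% of all genes were called in each of the 3 comparisons, and no member by any tool. Of the 104 members, 0, 10 and 1 had an unadjusted p under 0.05, and 7 of the 10 for Y541S against WT were mitochondrial genes, with a median of −1.08 over the 12 and −0.91 over the 7 above 100 CPM, 5 of which had such a p. The gene with the lowest unadjusted p was mt-Nd1 (−0.91 ± 0.34, adjusted p = 0.865 by edgeR). It stood at 2634, 1905 and 1127 CPM in WT ML and 702, 1284 and 1022 CPM in Y541S ML libraries, which overlap.

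Other genes of the mitochondrion were read from other gene lists in the comparison over genotypes, where 13.8% of all genes tested were called higher and 13.6% lower, with a median of −0.03. Assembly genes of complexes III, IV and V fell for 11 of 27 and rose for none (median −0.46), led by Coa7, needed for complex IV assembly (−1.58 ± 0.23, 18.5 against 6.20 CPM in ML and N), and Cox17, a copper chaperone (−0.99 ± 0.21). Proteins of the mitochondrial ribosome, which translates the mitochondrial mRNAs, fell for 20 of 73 and rose for 2 (median −0.26), with Mrpl14 at −1.04 ± 0.16. For cytoplasmic ribosomal proteins 1 of 78 rose and 1 fell (median −0.02). Tricarboxylic acid cycle genes fell for 3 of 18, among them fumarate hydratase Fh1 (−0.56 ± 0.11), and rose for none. Respiratory chain genes outside the naming rule fell for 2 of 15 and rose for 1, the complex I assembly factor Acad9 (0.89 ± 0.23). Fatty acid oxidation genes rose for 2 of 16, the subunits Hadha (0.76 ± 0.12) and Hadhb (0.63 ± 0.13) of the trifunctional protein, and fell for 5, among them the carnitine transferase Cpt2 (−0.91 ± 0.18). Glycolysis genes rose for 4 of 19, with Pfkp at 1.22 ± 0.24, and fell for 5, with Aldoc at −2.78 ± 0.30.

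Regulators of mitochondrial content moved in both directions: 7 of 19 rose (36.8%) and 3 fell (15.8%), against 13.8% and 13.6% of all genes. Those that rose included Myc (1.82 ± 0.19), the deacetylase Sirt1 (93.7 against 32.6 CPM in N and ML), the subunit gene Gabpa of an ETS factor (57.3 against 29.3 CPM) and Nrf1, named after its value was seen (0.36 ± 0.11, 84.0 against 65.1 CPM in N and ML). Those that fell were the estrogen-related receptor gene Esrrg (−3.39 ± 0.61), the kinase subunit gene Prkaa2 (−1.46 ± 0.24) and the mitochondrial deacetylase Sirt3 (−0.79 ± 0.24). Genes of mitochondrial DNA and RNA upkeep rose for 2 of 27 and fell for 3, import genes fell for 4 of 24, carriers rose for 2 of 18 and fell for 3, and genes of mitophagy and dynamics rose for 1 of 14 and fell for 4. Apart from the mitophagy and dynamics genes that fell (28.6%), shares in the lists after the regulators lay near or below those of all genes. All genes named in this and the preceding paragraph had an adjusted p of at most 0.0259 by edgeR.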

How the data were processed

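The deposited tables, 1 per library, hold whole-number counts per gene, and an RPKM value that the authors derived with a width equal to the gene's span, introns included, which was therefore not used. Per the submitters' processing notes the build was GRCm38. For strand use, aligner and counter, what the authors chose is not given in the sources used here. Of 1216 protein-coding genes lying wholly inside another gene, 90.4% hold 0 counts in every library, against 14.9% of the 20680 others. Libraries were made with Nextera XT per the labels. Of the gene identifiers 99.7% matched GENCODE M21, which gave symbols and positions.

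Counts were fitted in R 4.3.3 with edgeR 4.0.16 (filterByExpr, minimum count 10 and minimum total 15, TMM, 1 quasi-likelihood model of 6 groups with 12 residual degrees of freedom, common dispersion 0.425), with Benjamini-Hochberg adjustment over 18298 genes. Tool alternatives were DESeq2 1.42.0 and limma 3.58.1 (voom with quality weights). The fitting step was tested on simulated data. Shared sequence means 50-base windows of a transcript found in transcripts of other genes. Named members were those called in a comparison, complex II genes, paired isoforms and mitochondrial genes, and from other lists up to 3 called genes per direction by p. Members and lists were chosen with earlier results of these data known.

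Within a genotype, libraries of both gates with the same number deviated together in all 9 pairs (r = 0.177 to 0.507) and were taken as pairs in the blocked fit, which comes from the data and not from the labels. Across genotypes, same-numbered libraries of the same gate gave values of both signs (−0.522 to 0.313 over 18 pairs). So did those of different gates (−0.469 to 0.248).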

Additional observations from a re-analysis of the deposited data

How the results depend on the processing

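Over the 3 genotypes, 16 of the 27 nuclear calls held in all 18 fits that leave out 1 library. The count of nuclear genes that fell was 14 to 31 in those fits (16 without D542G ML 2, 15 without WT ML 1, WT N 1 or WT N 2, and 14 without Y541S N 1), with 2 to 3 that rose, 0 to 1 mitochondrial gene that fell and 1 to 3 assembly factors. With same-numbered libraries as pairs (replicate block), 22 of the 27 calls held and 20 nuclear genes fell, and in WT 0 members fell where the fit without the block called 2. By limma-voom 40 nuclear, 3 mitochondrial and 5 assembly factor genes fell, and by DESeq2 2 assembly factors. Without the 3 epidermal-rich libraries 3 nuclear genes fell and 1 rose. The nuclear median was −0.25 to −0.35 under these settings.

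In WT, DESeq2 called 1 and limma-voom 3 members higher and limma-voom 12 lower, and 0 fell without the low-count filter or without those 3 libraries. With 1 library left out 0 to 1 rose and 0 to 9 fell. In D542G, 12 fell by DESeq2, 44 by limma-voom, which called 1 higher, and 5 without the 3 libraries, with 1 to 10 when 1 library was left out. In Y541S, DESeq2 called 2 higher and 4 lower and limma-voom 6 lower. There 0 fell with DESeq2 size factors, with mitochondrial genes left out, without the filter and without the 3 libraries, and 0 to 4 with 1 library left out. Between genotypes in N, D542G against WT gave 1 higher by DESeq2 and by limma-voom, 3 lower by DESeq2, 5 by limma-voom and 1 without the 3 libraries. Y541S against WT gave 2 higher by both, 1 lower by DESeq2 and 2 by limma-voom, and 0 to 1 higher with 1 library left out. For the interactions, limma-voom called 1 lower for D542G and DESeq2 1 higher for Y541S. Shares of all genes called within a genotype are not given for DESeq2, limma-voom or the fits without the 3 libraries. For most fits that leave out 1 library they are not given either. Those counts compare settings and are not a result about the members. Over the 3 genotypes limma-voom called 21.9% of all genes lower and edgeR 13.6%. The causes of these shifts were not tested. No value changed sign under a setting where it had been called.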
